A study of Homo sapiens with 12 samples.

Results

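A set of 36 genes known to respond to androgen in prostate epithelium was followed in C4-2 prostate cancer cells after inhibition of the kinase PBK. The genes were listed by symbol as known targets of androgen signalling, by a rule that uses no measured value, although the list was drawn up with earlier results of these data known. Of the 36, 35 were found among the 54127 gene IDs in the count tables, 33 had enough reads to be tested, and MSMB was not analysed here. C4-2 is a castration-resistant line derived from LNCaP cells, and both groups were C4-2 cells in RPMI medium with serum. The DMSO group (6 libraries) received DMSO, the vehicle, and the PBKi group (6 libraries) received 1 µM of PBKi (HI-TOPK-032, also called TOPK-32, an inhibitor of the catalytic activity of PBK). According to the methods, treatment lasted 6 h. All 12 libraries come from a single cell line, and no label says whether the replicates were separate cultures, so p-values measure the spread between these libraries only. The labels name no added androgen or anti-androgen for either group, and they describe RNA of flow sorted cells without naming the sort.

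Androgens are steroid hormones that act in prostate epithelium by raising or lowering transcription of genes near DNA sequences called androgen response elements. These lie mostly in enhancers that pioneer factors such as FOXA1 have made accessible. The targets of androgen in luminal prostate cells include secreted enzymes of the seminal fluid, membrane transporters and surface antigens, transcription factors and metabolic enzymes. Most genes of the set are known to be induced by androgen, whereas FOLH1 and OPRK1 are known to be repressed by it.

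Levels are given as CPM, the reads of a gene divided by the effective size of its library, and fold changes are PBKi against DMSO on the log2 scale, so that a negative value is a lower level in PBKi. Reads on genes ranged from 9663203 to 28029908 per library in DMSO and from 13122415 to 22817803 in PBKi. Of uniquely aligned reads, 5.74% to 6.96% of each DMSO library and 5.94% to 9.30% of each PBKi library fell outside genes, most in PBKi replicates 3 and 6. The summed level of 7 luminal markers was 1650 to 1946 CPM in DMSO and 1319.9 to 1580.3 CPM in PBKi, 5 immune markers summed to at most 0.397 and 0.738 CPM, and 4 basal markers to at most 1.84 and 1.61 CPM. Sums for 7 stromal markers were 21.5 to 26.7 CPM in DMSO and 20.02 to 25.4 CPM in PBKi, mostly from COL1A1, those for 3 endothelial markers 4.36 to 7.57 and 3.43 to 4.91 CPM, and those for 5 neuroendocrine markers 1.02 to 1.85 and 1.24 to 2.14 CPM. The luminal sum was lower in every PBKi library than in any DMSO library. Of its 7 markers, none at 0, 4 were downregulated, while KRT8, EPCAM and CDH1 did not pass the test. KRT8 and KRT18 also belong to the present set, and the part of the luminal sum in the results was not tested. In bulk RNA, fewer cells of a kind and less RNA per cell cannot be told apart.

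Across the set, expression fell more often than it rose. In PBKi 20 of the 33 tested genes were downregulated (60.6%), 2 were upregulated (6.06%) and 11 did not pass an adjusted p of 0.05 in the quasi-likelihood test of edgeR, adjusted over all genes by Benjamini-Hochberg. Among all 14505 genes tested, 21.5% were downregulated, 20.1% upregulated and 41.7% changed in either direction. The median log2 fold change of the 33 genes was -0.33, against -0.01 over all genes. SLC45A3, SPDEF and CAMKK2 were displayed by the study as genes changed in these same samples and are no independent evidence of the direction. Without these 3, 17 of 30 genes were downregulated (56.7%) and the median log2 fold change was -0.25. In 14 of the 33 genes all 6 PBKi samples lay below all 6 DMSO samples, and in 1 gene, FOLH1, all lay above, while 9.68% of all genes tested separated downwards and 10.5% upwards. Compared by replicate number, 20 genes were lower and 1 was higher in PBKi in all 6 comparisons, against 21.4% and 19.6% of all genes tested.

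The falls covered a wide range of sizes. A group of 5 genes fell to less than 50% of the DMSO level, with log2 fold changes of at most -1, namely STEAP4, TMPRSS2, SLC45A3, TRPM8 and SPDEF, and 6 fell by between 0.5 and 1 on the log2 scale, namely CAMKK2, NDRG1, MAF, CREB3L4, ABCC4 and PLPP1. The other 9 downregulated genes changed by less than that. STEAP4 met the count filter only with its DMSO libraries, where it is high, so its fall is no support for the direction. It remains in every count of falls given for the set over all samples, also in those of separated groups and of comparisons by replicate number. Log2 fold changes of at most -0.5 with an adjusted p under 0.05 were seen in 11 of the 33 genes and in 4.32% of all genes tested, and none of the 33 rose by 0.5 or more, against 8.81% of all genes. The split by role was uneven: 5 of 6 kinases, phosphatases and signalling regulators, 5 of 7 transcription and elongation factors and 5 of 9 membrane proteins were downregulated, against 1 of 3 secreted proteins, 1 of 2 metabolic enzymes, 2 of 4 vesicle and other intracellular proteins and 1 of 2 keratins. The groups are small and their shares were not tested against each other.

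**Figure D1:**
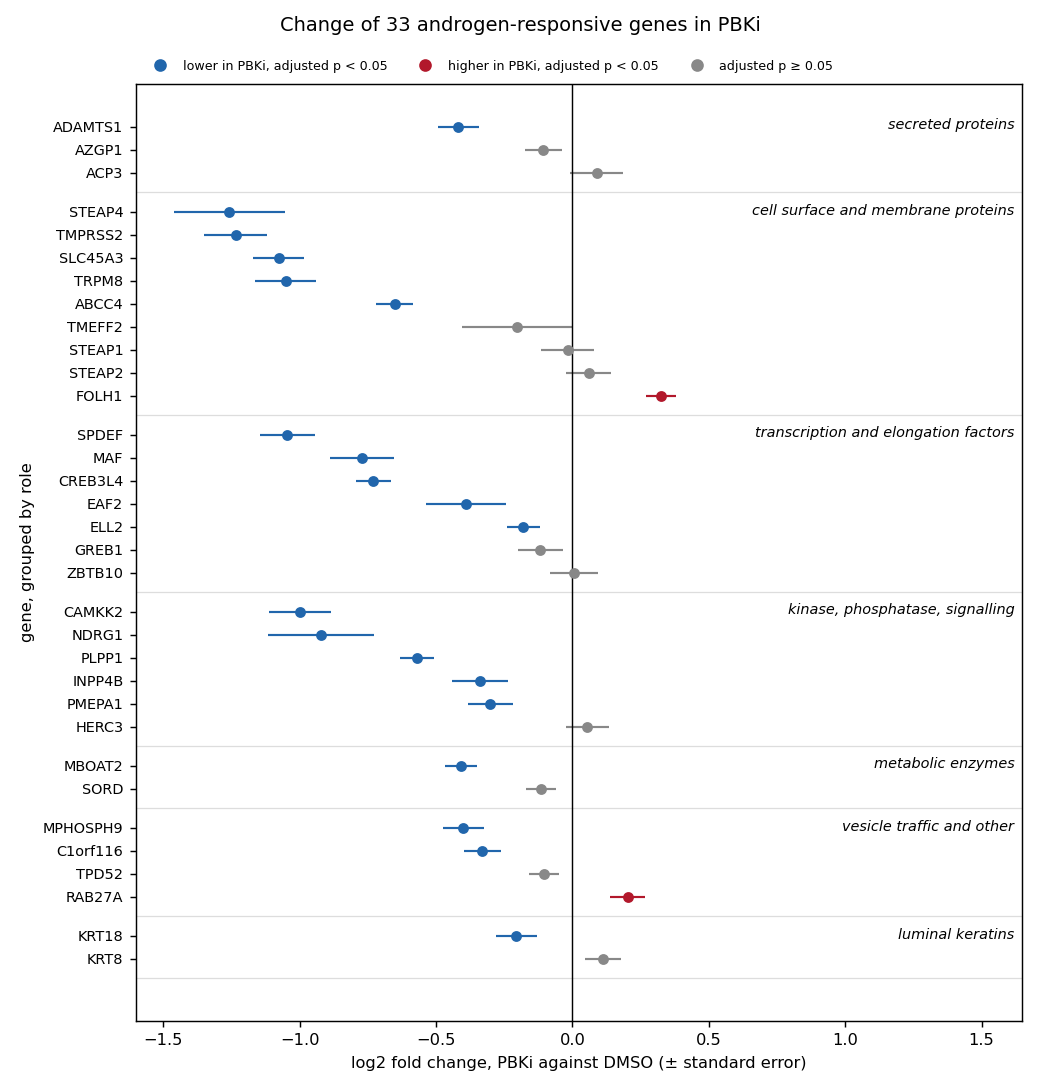
Log2 fold change in PBKi against DMSO (horizontal axis) of the 33 tested androgen-responsive genes, grouped by role, with points for estimates and bars for 1 standard error (n = 6 per group). Blue genes were downregulated (20), red genes upregulated (2), and grey genes did not pass an adjusted p of 0.05 (11), and the largest falls, down to -1.26, lie among the membrane proteins.

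To show the DNA in front of the genes that fell most, the 250 bases before the annotated start are printed for the 5 tested genes with the largest falls that have such a window, 3 of which the study displayed. For TRPM8, which has several starts, the first is shown. Sequences and positions are from RefSeq on GRCh38.p14, written 5′ to 3′ on the strand of the gene, and capitals mark the letters AGAACA (the half-site of an androgen response element), CCAAT or TATAAA on either strand. These words do not overlap in the windows shown. Tables of such windows held 23 of the 35 genes and did not include TMPRSS2, FOLH1 or NDRG1.
STEAP4, chr7:88306895-88307144, minus strand: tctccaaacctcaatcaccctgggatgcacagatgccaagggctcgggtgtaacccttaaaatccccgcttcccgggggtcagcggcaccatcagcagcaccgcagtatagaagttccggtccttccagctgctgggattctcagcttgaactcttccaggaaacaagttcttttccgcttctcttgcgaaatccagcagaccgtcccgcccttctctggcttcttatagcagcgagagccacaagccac
TRPM8, chr2:233917123-233917372, plus strand: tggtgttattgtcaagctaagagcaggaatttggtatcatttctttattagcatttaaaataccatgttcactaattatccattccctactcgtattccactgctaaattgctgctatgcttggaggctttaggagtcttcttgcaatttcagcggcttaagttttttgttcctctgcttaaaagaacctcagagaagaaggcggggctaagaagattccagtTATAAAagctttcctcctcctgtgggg
SLC45A3, chr1:205680510-205680759, minus strand: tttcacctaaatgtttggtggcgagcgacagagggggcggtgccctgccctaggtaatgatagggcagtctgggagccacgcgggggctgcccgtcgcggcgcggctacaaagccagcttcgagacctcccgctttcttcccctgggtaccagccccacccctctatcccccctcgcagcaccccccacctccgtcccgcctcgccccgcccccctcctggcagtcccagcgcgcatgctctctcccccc
SPDEF, chr6:34556330-34556579, minus strand: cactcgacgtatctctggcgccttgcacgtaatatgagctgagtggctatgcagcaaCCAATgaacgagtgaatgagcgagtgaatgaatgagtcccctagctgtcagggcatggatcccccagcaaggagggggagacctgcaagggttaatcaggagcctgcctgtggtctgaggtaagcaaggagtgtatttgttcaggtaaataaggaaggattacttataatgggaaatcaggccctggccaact
CAMKK2, chr12:121296710-121296959, minus strand: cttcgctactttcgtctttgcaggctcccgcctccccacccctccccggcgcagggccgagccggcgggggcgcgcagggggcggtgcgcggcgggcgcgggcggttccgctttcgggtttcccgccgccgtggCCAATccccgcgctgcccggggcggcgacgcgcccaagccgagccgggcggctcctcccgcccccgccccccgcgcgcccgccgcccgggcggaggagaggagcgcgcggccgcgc

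TRPM8 has TATAAA 27 bases before its start, SPDEF has CCAAT 193 bases before and CAMKK2 has CCAAT nearer to its start than SPDEF, whereas the STEAP4 and SLC45A3 windows hold none of the 3 words. The half-site AGAACA occurred in 3 of the 43 windows of the set, one each of PMEPA1, RAB27A and another start of TRPM8, and in 12.4% of 35116 windows of the same length over all genes. CCAAT was present in 18 of 43 windows (32.0% of all) and TATAAA in 8 of 43 (10.7% of all). The 43 windows belong to 23 genes, and several starts of a gene count separately, so windows are not independent. By gene, CCAAT was found in 15 of the 23 and TATAAA in 5, and these shares were not tested. The half-site followed by 3 bases of any kind and its reverse complement was in 0 of the 43 windows and in 0.00285% of all. A match is a description of letters and says nothing on binding, and most androgen response elements are known to lie outside such windows.

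The cell surface and membrane proteins held the largest falls as well as the clearest rise. TMPRSS2 (ENSG00000184012, chromosome 21 from 42836227 to 42903043, minus strand, GRCh37) encodes a serine protease of the luminal surface whose androgen-driven promoter is joined to ETS genes in many prostate cancers. The lowest, median and highest TMPRSS2 values were 150.3, 194 and 243 CPM in DMSO and 59.7, 87.4 and 99.0 CPM in PBKi. Every PBKi sample lay well below every DMSO sample, and the means of 198 ± 32.5 CPM and 84.1 ± 13.6 CPM (SD, n = 6) gave a log2 fold change of -1.24 (SE 0.12, adjusted p = 2.15e-07). TMPRSS2 shares 8.53% of its exon bases with MX1 on the opposite strand, and counting by strand is not stated. MX1 was low and moved the other way, from 1.83 to 3.24 CPM.

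SLC45A3 (ENSG00000158715, chromosome 1 from 205626979 to 205649637, minus strand), or prostein, is a prostate-restricted member of a sugar transporter family. Its values were 81.8, 87.4 and 98.2 CPM in DMSO (lowest, median and highest) and 29.8, 43.96 and 48.6 CPM in PBKi. The groups did not overlap, and the DMSO samples lay close together while the PBKi samples spread more widely, with a coefficient of variation of 6.79% against 16.8%. The log2 fold change was -1.08 (SE 0.093, adjusted p = 8.92e-08). TRPM8, a calcium-permeable cation channel opened by cold and menthol, fell from 57.0 ± 10.3 CPM to 27.6 ± 3.41 CPM, a log2 fold change of -1.05 (SE 0.11, adjusted p = 9.61e-07), again without overlap. ABCC4 (MRP4), an exporter of cyclic nucleotides and prostaglandins, was an abundant gene that fell from 389.9 ± 37.9 CPM to 248 ± 19.1 CPM, a log2 fold change of -0.65 (SE 0.068, adjusted p = 7.95e-07), and its highest PBKi sample (268 CPM) was below its lowest DMSO sample (356 CPM).

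The genes of the STEAP family, some members of which reduce iron and copper at membranes, did not move together. STEAP4 had the largest fall of the 33 tested genes and the lowest level per length among them, with 1.09, 1.32 and 1.49 CPM (lowest, median and highest) in DMSO and 0.295, 0.531 and 0.763 CPM in PBKi. These values rest on 13 to 35 reads per DMSO library and 4 to 18 per PBKi library. The groups did not overlap and the log2 fold change of -1.26 (SE 0.20, adjusted p = 0.0001) has a wider error than those of abundant genes. STEAP1, a surface antigen used as a therapy target, was the membrane protein with the smallest change, with 105, 139.7 and 161 CPM in DMSO and 118, 135 and 157 CPM in PBKi. Its PBKi range lay inside its DMSO range, the sign changed with single samples left out, and the log2 fold change was -0.02 (SE 0.098, adjusted p = 0.904). STEAP2, a neighbour of STEAP1 on chromosome 7, was at 600.1 ± 89.5 CPM in DMSO and 626 ± 36.9 CPM in PBKi, with a log2 fold change of 0.06 (SE 0.082, adjusted p = 0.588).

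FOLH1 (ENSG00000086205, chromosome 11 from 49166644 to 49230190, minus strand), which encodes prostate-specific membrane antigen (PSMA) and is known to be repressed by androgen, rose. In DMSO its lowest, median and highest values were 461, 505 and 547 CPM and in PBKi 595, 629.7 and 699.5 CPM. All 6 PBKi samples lay above all 6 DMSO samples and spread within a group was small (coefficient of variation 5.81% in both groups). The rise from 506 ± 29.4 CPM to 634 ± 36.9 CPM was a log2 fold change of 0.33 (SE 0.054, adjusted p = 0.000127). FOLH1 has a near-identical copy elsewhere on chromosome 11, so reads shared by both copies could have been dropped and its absolute level is uncertain. OPRK1, the kappa opioid receptor and the other gene of the set known to be repressed by androgen, was at the limit of detection with 22 reads in all DMSO libraries and 30 in all PBKi libraries and was not tested. TMEFF2, a transmembrane protein with follistatin-like domains, was also low, at 1.26 ± 0.328 CPM in DMSO and 1.13 ± 0.239 CPM in PBKi, with a log2 fold change of -0.20 (SE 0.20, adjusted p = 0.444).

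**Figure D2:**
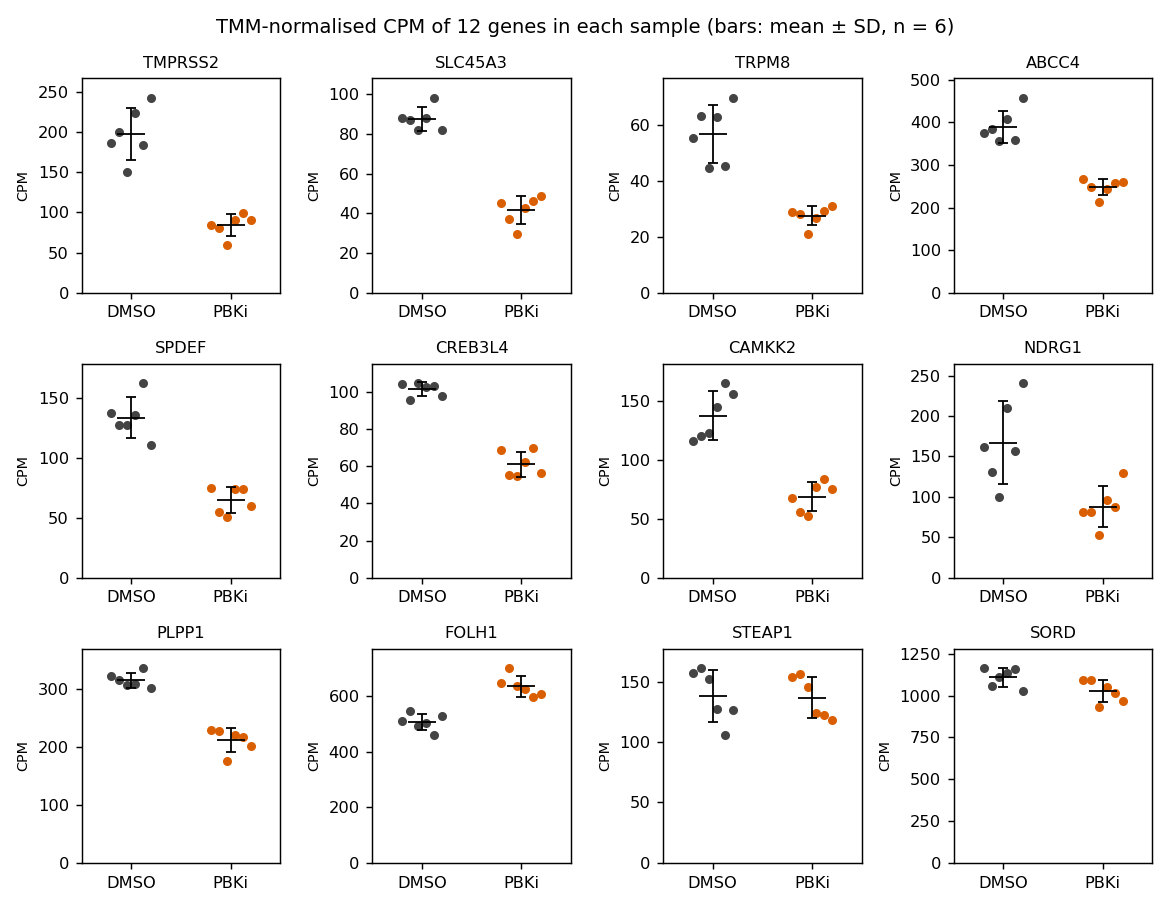
Normalised CPM (vertical axis, from 0, linear) of 12 androgen-responsive genes in each of 6 DMSO samples (grey) and 6 PBKi samples (orange), with bars for mean ± SD. The orange points lie below all grey points in TMPRSS2, SLC45A3, TRPM8, ABCC4, SPDEF, CREB3L4, CAMKK2 and PLPP1, overlap with them in NDRG1, STEAP1 and SORD, and lie above them in FOLH1.

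Among the regulators of transcription, 5 of 7 were downregulated and the sizes differed. SPDEF (ENSG00000124664, chromosome 6 from 34505579 to 34524110, minus strand) is an ETS factor of secretory epithelia. SPDEF stood at 111, 132 and 163 CPM (lowest, median and highest) in DMSO and at 51.1, 66.9 and 74.8 CPM in PBKi. The gap between the groups was wide, as the highest PBKi sample was below the lowest DMSO sample, and the log2 fold change was -1.04 (SE 0.10, adjusted p = 3.86e-07). CREB3L4, a bZIP factor anchored in the endoplasmic reticulum, had the tightest DMSO values of the set, 95.4, 103 and 105 CPM, a coefficient of variation of 3.76%. In PBKi CREB3L4 lay at 54.8, 59.2 and 69.6 CPM, below all DMSO samples, with a log2 fold change of -0.73 (SE 0.065, adjusted p = 1.15e-07). Its exons share 9.65% of their bases with SLC39A1, which did not pass the test (115 to 108 CPM, log2 fold change -0.09).

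MAF, a bZIP factor, was expressed at a low level, 4.50, 5.28 and 5.72 CPM in DMSO and 2.51, 2.93 and 3.61 CPM in PBKi, and separated the groups with a log2 fold change of -0.77 (SE 0.12, adjusted p = 4.67e-05). The elongation factor genes changed less. EAF2, which encodes an ELL-associated factor, went from 8.70 ± 2.05 CPM to 6.84 ± 1.21 CPM with a log2 fold change of -0.39 (SE 0.15, adjusted p = 0.0397), and ELL2, a subunit of the super elongation complex, from 119.9 ± 8.46 CPM to 106 ± 8.53 CPM with a log2 fold change of -0.18 (SE 0.062, adjusted p = 0.0261). Groups overlapped in both, and both calls were lost when any of DMSO replicates 1, 2 and 3 or PBKi replicates 3, 4, 5 and 6 was left out (adjusted p = 0.0706 to 0.131 for EAF2 and 0.0547 to 0.0986 for ELL2). ZBTB10, a zinc finger repressor, had nearly equal means and ranges of 98.3, 117 and 159.8 CPM in DMSO and 116.2, 122 and 133 CPM in PBKi. Its DMSO samples were spread over more than the whole PBKi range, the sign changed with single samples left out, and the log2 fold change was 0.0051 (SE 0.088, adjusted p = 0.971). GREB1, a coregulator of steroid receptors, was at 24.7 ± 2.46 CPM in DMSO and 22.7 ± 2.40 CPM in PBKi and did not pass the test (adjusted p = 0.263).

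The kinase, phosphatase and signalling group had the highest share of falls, 5 of 6. CAMKK2 (ENSG00000110931, chromosome 12 from 121675478 to 121736111, minus strand) encodes the calmodulin-dependent kinase kinase that activates AMPK. Its lowest, median and highest values were 115.9, 134 and 166 CPM in DMSO and 52.8, 71.8 and 83.7 CPM in PBKi. There was no overlap, and the mean in PBKi was 68.9 ± 12.4 CPM against 138 ± 20.8 CPM in DMSO, a log2 fold change of -0.997 (SE 0.11, adjusted p = 2.28e-06). NDRG1, a stress- and hypoxia-responsive differentiation gene, was the most variable of the 33 tested genes in DMSO, with 99.9, 159 and 241 CPM, a coefficient of variation of 30.8%. In PBKi NDRG1 was at 52.3, 84.7 and 129.6 CPM. Its groups overlapped, since PBKi replicate 6 exceeded DMSO replicate 3, and the log2 fold change of -0.92 (SE 0.20, adjusted p = 0.00113) carries one of the larger errors of the set.

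PLPP1, a lipid phosphate phosphatase of the plasma membrane, lay at 302, 313 and 337 CPM in DMSO and 176, 219.8 and 229.8 CPM in PBKi, with no overlap and a log2 fold change of -0.57 (SE 0.062, adjusted p = 1.39e-06). PLPP1 shares 24.9% of its exon bases with MTREX on the opposite strand, and MTREX did not pass the test (129 to 121 CPM, log2 fold change -0.09). INPP4B, a phosphatase that removes a phosphate from the PI3K product PI(3,4)P2, went from 15.7 ± 2.87 CPM to 12.5 ± 0.845 CPM with a log2 fold change of -0.34 (SE 0.10, adjusted p = 0.0135), and was not called without PBKi replicates 3 and 6 (adjusted p = 0.051). PMEPA1, an inhibitor of TGF-β signalling, went from 142 ± 14.1 CPM to 115 ± 14.3 CPM with a log2 fold change of -0.30 (SE 0.084, adjusted p = 0.00793). The groups of both genes overlapped. HERC3, a ubiquitin ligase, was the exception of the group, with 65.0, 77.5 and 91.3 CPM in DMSO, 68.8, 78.7 and 89.2 CPM in PBKi and a log2 fold change of 0.05 (SE 0.079, adjusted p = 0.611).

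Of 3 secreted proteins tested, 1 fell. ADAMTS1, an extracellular metalloprotease, went from 154, 174 and 201 CPM (lowest, median and highest) in DMSO to 118, 131 and 152 CPM in PBKi. Its groups did not overlap, although the margin was narrow, and the log2 fold change was -0.42 (SE 0.076, adjusted p = 0.000283). AZGP1, the secreted zinc-alpha-2-glycoprotein, stood at 169.7, 194 and 210.2 CPM in DMSO and 159, 172 and 206 CPM in PBKi. These ranges overlapped over most of their length, and the log2 fold change was -0.11 (SE 0.068, adjusted p = 0.221). ACP3, prostatic acid phosphatase, was low in this line, at 5.97 ± 0.732 CPM in DMSO and 6.44 ± 0.568 CPM in PBKi (adjusted p = 0.495).

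Of the metabolic enzymes, MBOAT2, a lysophospholipid acyltransferase, fell with no overlap from 301, 320.0 and 343 CPM in DMSO to 208, 240.3 and 264 CPM in PBKi, a log2 fold change of -0.41 (SE 0.059, adjusted p = 3.01e-05). SORD, sorbitol dehydrogenase, had the most reads of the set, with 1024, 1125 and 1164 CPM in DMSO and 934, 1033 and 1094 CPM in PBKi. The upper PBKi samples lay within the DMSO range, and the log2 fold change of SORD was -0.11 (SE 0.055, adjusted p = 0.106), with reads of its near-identical pseudogene a possible loss. HPGD, which inactivates prostaglandins, was too low to be tested. Its reads numbered 33 over the 6 DMSO libraries and 5 over the 6 PBKi libraries (0 to 2 each, with 3 libraries at 0). DMSO replicates 1 to 3 held 9, 6 and 13 of these reads, and DMSO replicates 4 to 6 held 3, 1 and 1. The ranges overlapped, and HPGD was lower in PBKi in all 6 comparisons by replicate number. With no count filter it was the one further gene of the set to be downregulated, with a fitted log2 fold change of -2.59 (adjusted p = 0.000446). That value rests on these few reads, most of them in DMSO replicates 1 to 3.

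The vesicle and other intracellular proteins held the second rise. RAB27A, a small GTPase that docks secretory vesicles, was at 28.3, 31.6 and 35.2 CPM in DMSO and 33.8, 35.8 and 39.1 CPM in PBKi. The ranges overlapped slightly and the log2 fold change was 0.20 (SE 0.064, adjusted p = 0.0167), a call lost without PBKi replicates 3 and 6 (adjusted p = 0.0547). MPHOSPH9, a centrosomal phosphoprotein, fell from 14.3, 17.4 and 19.0 CPM (lowest, median and highest) to 11.4, 13.1 and 13.9 CPM, a log2 fold change of -0.40 (SE 0.077, adjusted p = 0.00047). C1orf116, also called SARG for specifically androgen-regulated gene, fell from 129, 139 and 159.8 CPM to 97.8, 115 and 122 CPM, a log2 fold change of -0.33 (SE 0.068, adjusted p = 0.000923). Neither of the genes that fell showed overlap between groups. TPD52, a vesicle traffic protein, had 263, 294 and 319 CPM in DMSO and 256, 272 and 283 CPM in PBKi, an overlap, and a log2 fold change of -0.10 (SE 0.055, adjusted p = 0.14).

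KRT8 and KRT18 encode the paired keratins of luminal cells, and their log2 fold changes had opposite signs, with overlapping groups in both. KRT18 was at 127, 137 and 166 CPM in DMSO and 103, 123 and 137 CPM in PBKi, with a log2 fold change of -0.21 (SE 0.075, adjusted p = 0.035). KRT8 was at 137, 147 and 184 CPM in DMSO and 150.5, 166 and 180.1 CPM in PBKi, with a log2 fold change of 0.11 (SE 0.067, adjusted p = 0.191). The call of KRT18 was lost when any of DMSO replicates 4, 5 and 6 or PBKi replicates 2, 3, 5 and 6 was left out (adjusted p = 0.0542 to 0.109), and KRT8 passed the test when DMSO replicate 5 was left out (log2 fold change 0.17, adjusted p = 0.0154). The genes overlap in the annotation by 17.1% of the KRT18 exon bases and have many near-identical copies, so both levels are uncertain.

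Levels between genes were compared per exon length, as RPKM, which is CPM divided by the exon length in kilobases. In DMSO 24 of the 33 genes lay above the median RPKM of all genes tested and 12 above its 90th percentile. PLPP1 (163 RPKM), FOLH1 (94.9), STEAP1 (89.5) and SORD (89.2) had the highest RPKM, and STEAP4 (0.116) and TMEFF2 (0.215) the lowest of the tested genes. Genes of high RPKM differed in their change. PLPP1 fell, FOLH1 rose, and STEAP1 and SORD did not pass the test, while genes downregulated by about 1 on the log2 scale ranged from SPDEF (69.8 RPKM) to TRPM8 (7.19 RPKM).

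**Figure D3:**
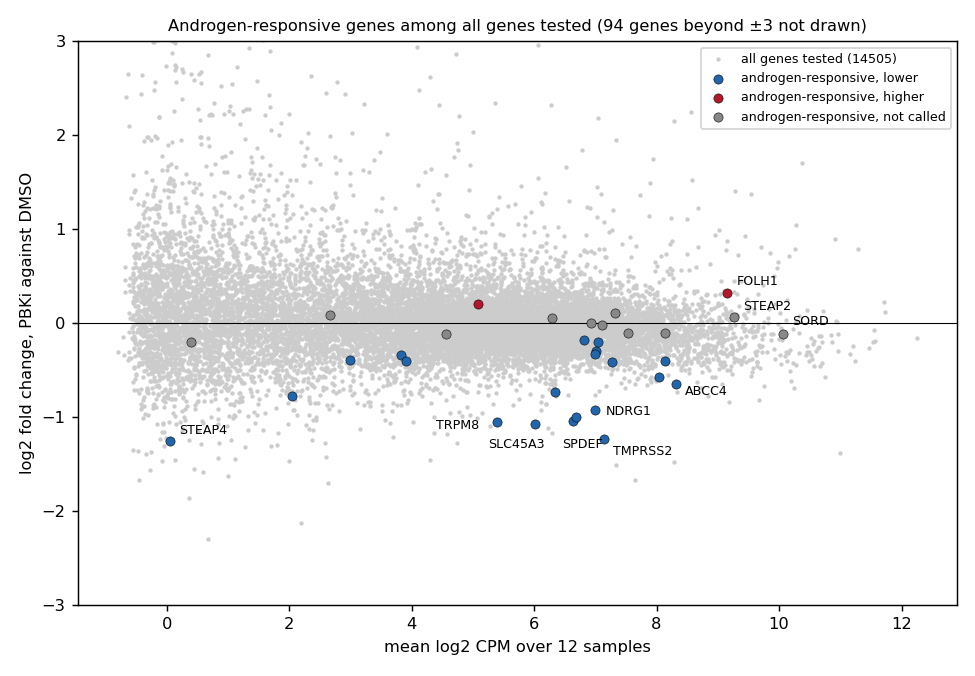
Log2 fold change in PBKi against DMSO (vertical axis) against mean log2 CPM over 12 samples (horizontal axis) for all 14505 genes tested (light grey) and the 33 androgen-responsive genes (blue lower, red higher, dark grey not called). Genes of the set are found at low and high expression, and TMPRSS2, SLC45A3, SPDEF and TRPM8 lie at the lower edge of genes of like expression.

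The fall was present in every PBKi library and was deepest in one. Averaged over the 20 downregulated genes, the difference from the DMSO mean of each gene was -0.54 to -0.66 (log2) in 5 PBKi libraries and -0.86 in PBKi replicate 3, while single DMSO libraries lay between -0.13 and 0.07. These genes were chosen as lower, so the sign describes them and tests nothing. In 14 of the 20 genes the lowest PBKi value belonged to PBKi replicate 3, which was also lowest in 38.0% of all downregulated genes. NDRG1 ranged from 52.3 CPM in PBKi replicate 3 to 129.6 CPM in PBKi replicate 6. Without PBKi replicate 3, 5 or 6, 17 of the 33 genes were downregulated in each case, and with PBKi replicates 3 and 6 both left out, 16 were. The part of reads outside genes in these libraries, or of any other property of them, was not tested.

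**Figure D4:**
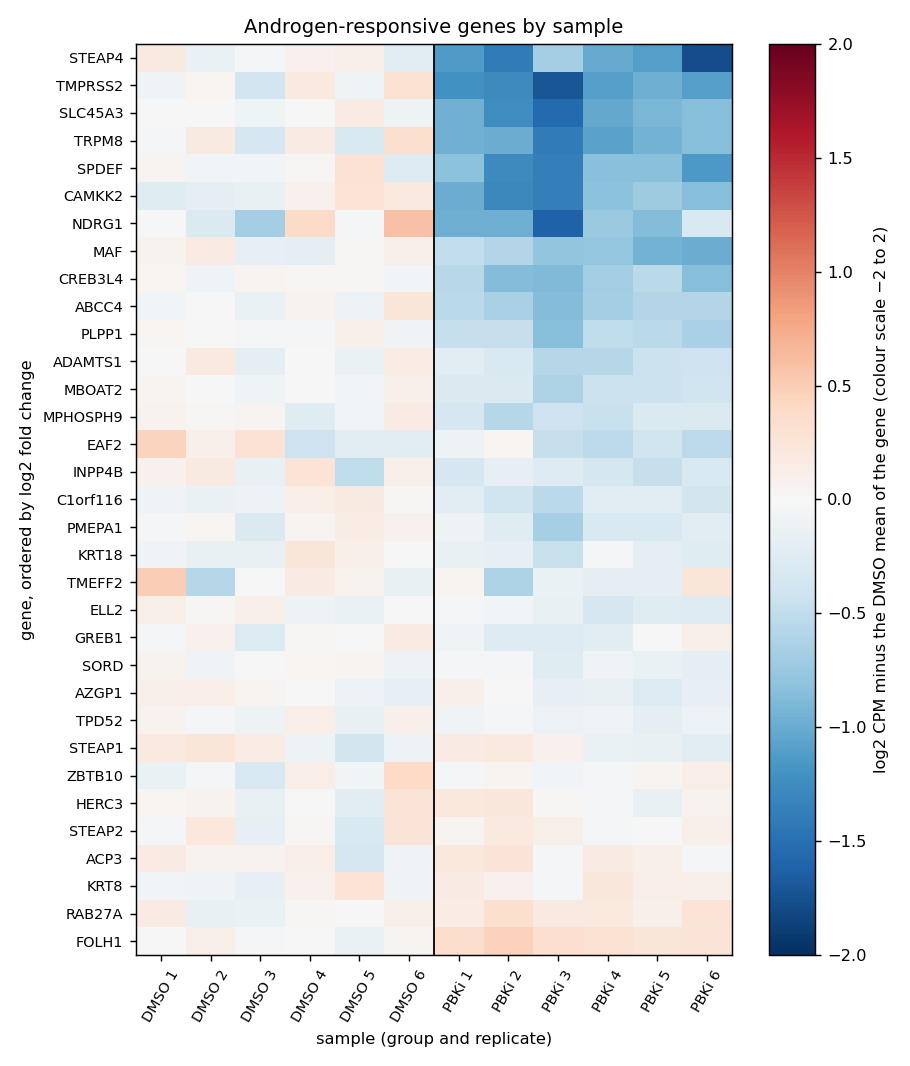
Difference of log2 CPM from the DMSO mean of the gene (colour, blue lower and red higher, from -2 to 2) for 33 androgen-responsive genes (rows, ordered by log2 fold change) in 6 DMSO and 6 PBKi samples (columns). The upper rows are blue in all 6 PBKi samples and darkest in PBKi replicate 3 for most genes, and FOLH1 in the lowest row is red in all 6.

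Replicates 1 to 3 and replicates 4 to 6 separated on the second principal component of all genes (9.76% of the variance, with 61.0% on the first, which separated PBKi from DMSO), so the comparison was repeated in each set. In replicates 1 to 3, 17 of 32 genes were downregulated and 4 upregulated, against 22.8% and 23.6% of all genes tested there. In replicates 4 to 6, 14 of 32 were downregulated and 1 upregulated, against 8.26% and 8.4% of all genes. STEAP4 had too few reads to be tested in either set. The median log2 fold changes were -0.26 and -0.28. TMPRSS2 had -1.25 and -1.20, SPDEF -1.12 and -0.96, and FOLH1 0.37 and 0.31. STEAP1, ZBTB10 and HERC3, none of which passed the test, changed sign between the sets, and 29 of 32 genes kept theirs (90.6%, against 83.4% of 12779 genes in all). A test of the difference between the sets (interaction term in edgeR) passed for 0 of the 33 genes, with 0 at an unadjusted p under 0.05, against 0 and 4.83% of all genes tested. DESeq2's likelihood ratio test gave 0 and 0 (3.83% of all genes at an unadjusted p under 0.05), and the edgeR fit with a replicate block gave 0 and 2 (5.58%).

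**Figure D5:**
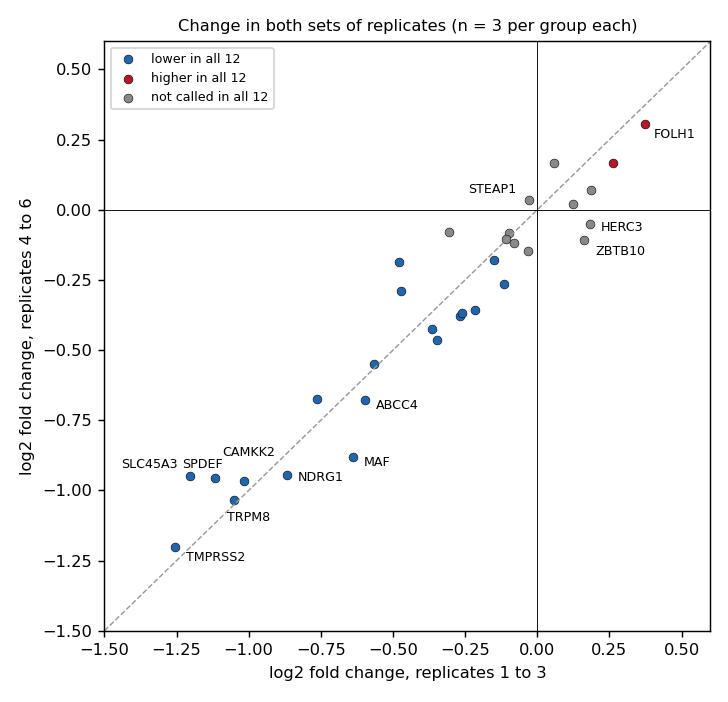
Log2 fold change of PBKi against DMSO in replicates 1 to 3 (horizontal axis) and in replicates 4 to 6 (vertical axis) for the 32 androgen-responsive genes tested in both sets (n = 3 per group in each), with a dashed line of equal change. Genes downregulated in all 12 samples (blue) lie in the lower left from TMPRSS2 upwards, and STEAP1, ZBTB10 and HERC3 lie across an axis near 0.

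Other genes of androgen signalling were read from lists written by hand, with earlier results of these data known. Of 75 further androgen-induced genes tested, 31 were downregulated (41.3%) and 16 upregulated (21.3%), with a median log2 fold change of -0.08. Over all genes tested the shares were 21.5% and 20.1%, and the list was not tested against the set of 33. KLK2 and KLK3, the kallikrein proteases of seminal fluid, fell from 462 to 166 CPM and from 2959 to 1131 CPM (log2 fold changes -1.48 and -1.39). The study displayed both on these samples. TNFAIP8, a regulator of apoptosis, fell from 19.8 to 11.8 CPM with a log2 fold change of -0.76 (SE 0.096, adjusted p = 7.65e-06). The largest rise was that of HSD17B14, a hydroxysteroid dehydrogenase of low level (0.787 to 3.82 CPM, without overlap, log2 fold change 2.28). HSD17B14 met the count filter only with its PBKi libraries, where it is high, so its rise is no support for a direction. It is still counted among the 16 upregulated genes. At a mean log2 CPM of at least 3, the largest rises without overlap were SAT1, a spermidine acetyltransferase (40.9 to 70.7 CPM, log2 fold change 0.78), DNAJB9, a chaperone of the endoplasmic reticulum (66.3 to 101 CPM, 0.61), and GSR, glutathione reductase (447 to 609 CPM, 0.45).

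In a list of 15 pioneer factors, coregulators and related genes, 4 were downregulated (26.7%, against 21.5% of all genes tested) and 3 upregulated (20%, against 20.1%). The 4 were the DNA-binding factors HOXB13 (302 to 199 CPM, -0.60), GRHL2 (254 to 198 CPM, -0.36), FOXA1 (382 to 303 CPM, -0.34) and GATA2 (237 to 189 CPM, -0.32). The 3 that were upregulated were the coactivators NCOA2 (0.31) and NCOA3 (0.21) and the low GATA3 (0.911 to 1.37 CPM). Of 5 other genes known to be repressed by androgen, MET, a receptor tyrosine kinase, rose (2.22 to 5.10 CPM, log2 fold change 1.21), CAMK2N1, an inhibitor of CaM kinase II, fell (94.3 to 59.9 CPM, -0.65), and the other 3, UGT2B15 and UGT2B17 among them, did not pass the test.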

How the data were processed

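Single-end reads were mapped by the authors on GRCh37 (TopHat 2.0.4) and assigned to genes (HTSeq-count 0.5.3p9). The deposited values are raw counts per gene in 47 lane files. Reads aligned to several places or to several genes were left out of genes by that counting, and counting by strand is not stated. Lanes of a library (4, or 3 for DMSO replicate 5) were summed, as their chi-square per degree of freedom was 0.974 to 1.04, against 3.74 to 22.2 between replicates.

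A minimum of 10 counts in 6 or more samples left 14505 genes. These were compared between PBKi and DMSO by the quasi-likelihood test of edgeR 4.0.16 (R 4.3.3) after TMM normalisation, with no covariate and with Benjamini-Hochberg adjustment over all of them. CPM values are TMM-normalised and SE is the standard error. The test was checked on simulated counts of 14505 genes, with 100 genes changed by each of 2 sizes and no variation shared by replicate number. It recovered 62% of genes changed by 0.5 and 92% of those changed by 1 on the log2 scale, and 4.35% of its calls were false. These rates belong to that setting and can differ in the data, where 41.7% of genes were called. A gene that did not pass can still have changed by a small amount. Symbols were matched for 47098 of 54127 IDs, and positions are from GENCODE 44 mapped to GRCh37. The members, lists and tests were chosen with earlier results of these data known. Values per sample are given, in each role, for the called genes with the largest changes (up to 3 in each direction) and for the smallest change at a mean log2 CPM of at least 3. From other lists, up to 3 falls and 3 rises at that level without overlap are named, and others were named after their values were seen. Some genes of these lists are not reported here. Alternatives were DESeq2 1.42.0, limma-voom (limma 3.58.1), RLE size factors, other filters, lanes 6 to 8, a replicate block, a covariate for the replicate set, stricter thresholds and each sample left out. Leaving out PBKi replicates 3 and 6 together was added after seeing the data.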

Additional observations from a re-analysis of the deposited data

How the results depend on the processing

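The 20 downregulated androgen-responsive genes numbered 19 to 21 with DESeq2, limma-voom, RLE factors, no count filter, a filter of 1 CPM, lanes 6 to 8 and the covariate for the replicate set, 16 at an adjusted p under 0.01, 17 to 20 with 1 sample left out (17 without PBKi replicate 3, 5 or 6) and 16 without PBKi replicates 3 and 6. Requiring a log2 fold change of 0.5 in size left 11. The 2 upregulated genes numbered 2 to 3 with 1 sample left out, 1 without PBKi replicates 3 and 6, where RAB27A had an adjusted p of 0.0547, 1 at an adjusted p under 0.01 and 0 at the 0.5 limit. For the further androgen-induced genes the 0.5 limit left 12 of 31 falls and 3 of 16 rises, and leaving out 1 sample gave 26 to 31 and 14 to 19. With each sample left out the interaction with the replicate set passed for 0 genes.

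In all 21 alternatives that kept the threshold, 16 of the 20 genes stayed downregulated, and EAF2, ELL2, INPP4B and KRT18 did not. INPP4B was lost only without PBKi replicates 3 and 6 (adjusted p = 0.051). The direction reversed for STEAP1 and ZBTB10, neither of which was called. STEAP1 ranged from -0.077 to 0.038 with 1 sample left out (0.022 without DMSO replicate 1, 0.038 without 2, 0.012 without 3, 0.021, 0.023 and 0.032 without PBKi replicates 4, 5 and 6) and was 0.021 without PBKi replicates 3 and 6. ZBTB10 ranged from -0.052 to 0.107 (-0.022, -0.052 and -0.0042 without DMSO replicates 1, 3 and 5, -0.00058 and -0.0081 without PBKi replicates 2 and 6). The cause was not tested.

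Same-numbered samples deviated together with correlations of 0.0887 to 0.299, against a mean of -0.04 between different numbers, and 4 of 6 pairs correlated best with their own number. Samples of one number thus shared some variation, which the main test, with no covariate, did not take into account. No label says what the numbers stand for. With the replicate number as a block, 20 genes of the set were downregulated and 2 upregulated, and 36 and 20 of the further genes. Over all genes the block gave 3803 downregulated and 3485 upregulated, against 3125 and 2921 in the main test. Depth limits STEAP4, HPGD and OPRK1, which rest on few reads.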

Other observations

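Among the further androgen-induced genes, those of lipid metabolism differed in direction and size. INSIG1, a regulator of sterol synthesis, and ACSL3, an acyl-CoA synthetase of lipid droplets, were downregulated without overlap between groups (572 to 383 CPM and 666 to 472 CPM, log2 fold changes -0.58 and -0.50). HMGCS1 and IDI1 of sterol synthesis and SCD, FADS1 and ELOVL5 of fatty acid synthesis did not pass the test. FKBP5, a chaperone known as an androgen-induced gene, fell without overlap from 259.8 to 184 CPM (log2 fold change -0.50). KLK4, a kallikrein next to KLK2 on chromosome 19, fell from 80.0 to 70.3 CPM (log2 fold change -0.19). These genes were picked after their values were seen and were not tested as a group.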
